A study of Saccharomyces cerevisiae with 6 samples.

Results

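The 10 genes described here encode the proteins at the branch point of pyruvate in budding yeast (Saccharomyces cerevisiae). They are the 3 pyruvate decarboxylase isozymes PDC1, PDC5 and PDC6, the 4 genes specific to the pyruvate dehydrogenase complex, PDA1, PDB1, LAT1 and PDX1, and the 3 genes of the mitochondrial pyruvate carrier, MPC1, MPC2 and MPC3. They were chosen by name, through the gene symbol or the systematic name printed on the array. Each had 1 probe, so the set held 10 of the 6256 yeast probes on the array. All 10 were well above background on all 6 arrays and were among the 5907 probes tested. The symbols MPC1, MPC2 and MPC3 were matched through the systematic names YGL080W, YHR162W and YGR243W.

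The series measured total RNA of a yeast culture on 1-colour Agilent expression arrays, labelled with Cy3. The xylose group held 3 samples whose cells had fermented xylose, supplied at 50 g/L, for 9 h. The glucose group held 3 samples whose cells had fermented glucose, supplied at 50 g/L, for 3 h. The series title gives the purpose as choosing promoters for use in xylose culture and fermentation. The strain and its genotype are not given in the sources used here, so alleles that both groups may share are not known. Sugar and sampling time differed together, so the effect of one cannot be told apart from that of the other. The glucose samples carry 3 h in their titles, their time field and the design text, whereas their source names read 9 h, and 3 h is used here. The labels call the samples triplicates without saying whether they came from separate cultures, so the p-values reflect the scatter among these samples alone, and that scatter may be technical. The RNA came from bulk culture, in which fewer cells with a transcript and less transcript per cell cannot be told apart.

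Pyruvate, the end product of glycolysis, can be decarboxylated in the cytosol to acetaldehyde by pyruvate decarboxylase, the step that leads to ethanol. It can instead enter the mitochondrial matrix through the pyruvate carrier and be converted to acetyl-CoA by the pyruvate dehydrogenase complex, which feeds the citric acid cycle. In yeast the carrier pairs Mpc1 with either of a pair of related partners: Mpc2 is the partner known from fermentative growth and Mpc3 the partner known from respiratory growth.

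Over all tested genes, xylose arrays 1 and 2 correlated at 0.993, and xylose array 3 with either of them at 0.953 to 0.963. Glucose array 2 stood apart, with correlations of 0.868 and 0.837 with the other glucose arrays, which correlated at 0.958. Results are therefore also given without glucose array 2. Arrays 1 and 2 of both sugars lay on 1 slide and array 3 of both sugars on another, so each slide held both sugars. By the median absolute log2 difference over tested genes, arrays of different sugars on the same slide were 0.37 to 0.49 apart. Xylose array 3 was 0.46 and 0.48 from xylose arrays 1 and 2, and glucose array 3 was 0.48 and 0.69 from glucose arrays 1 and 2. By this measure the arrays did not group by sugar alone. The signal at the 75th percentile of an array, to which its values were scaled, ranged between 1407 and 3871 units, and between 5777 and 5979 probes of an array were well above background. The small number of arrays limits the precision.

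Of the genes of the pyruvate branch, MPC3 changed, and it was 17.0-fold higher in xylose at 9 h than in glucose at 3 h. MPC2 and PDC5 had lower levels in every xylose array than in any glucose array and PDC6 had higher ones, but none of these 3 differences passed the test over all 6 arrays. PDC1, MPC1 and the 4 genes of the dehydrogenase complex had groups that overlapped. In the limma fit over all 5907 probes, 1 of the 10 genes had a Benjamini-Hochberg adjusted p under 0.05, against 2.52% of all probes tested (149 probes, 84 of them higher and 65 lower in xylose). An unadjusted p under 0.05 was found for 4 of the 10 genes, against 16.5% of all probes. Levels did not overlap between the sugars for 4 of the 10 genes, against 23.5% of all probes. Leaving out glucose array 2 gave 3 called genes, with MPC3 and PDC6 higher and MPC2 lower in xylose, against 11.5% of all probes. The median difference of the 10 genes, xylose minus glucose on the log2 scale, was -0.18, against 0.02 over all probes.

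**Figure D1:**
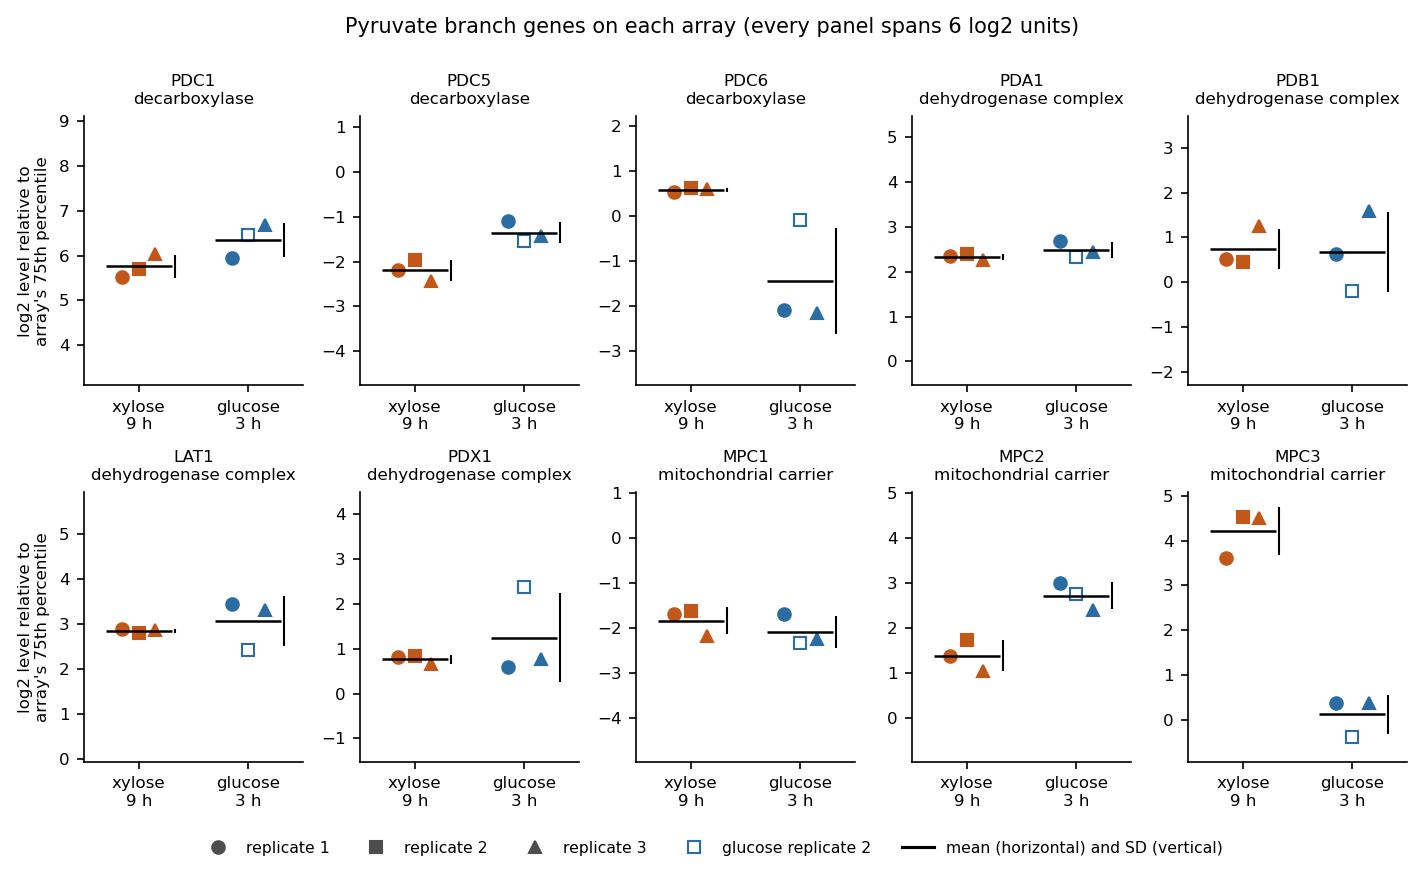
Level of each of the 10 genes on each array, as log2 signal relative to the array's 75th percentile (vertical axis), for the 3 xylose arrays at 9 h (left in each panel) and the 3 glucose arrays at 3 h (right). Points are arrays, horizontal lines group means and vertical lines SD; MPC3 lies between 3.61 and 4.52 in xylose and between -0.37 and 0.39 in glucose.

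MPC3 (YGR243W), the partner of Mpc1 known from respiratory growth, had log2 levels relative to the array's 75th percentile of 3.61, 4.52 and 4.51 on xylose arrays 1, 2 and 3, against 0.37, -0.37 and 0.39 on glucose arrays 1, 2 and 3. In xylose the transcript was thus far above the level that 75% of probes stayed under, and in glucose it was near that level. The mean was 4.21 ± 0.52 in xylose and 0.13 ± 0.43 in glucose (SD, n = 3 each). The difference was 4.09 ± 0.36 (SE) on the log2 scale, with a 95% interval of 3.24 to 4.93 (limma, adjusted p = 0.00461). It ranked as the tenth largest rise among the 5907 probes. Without glucose array 2 the rise was 14.3-fold (limma, adjusted p = 0.00499), and the difference was 4.12 on the slide with array 3. On the slide with arrays 1 and 2 alone it was 4.07 and did not pass (limma, adjusted p = 0.139).

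Within the xylose group, MPC3 was among the genes that separated arrays 1 and 2, which otherwise were nearly alike. It was 0.91 higher on xylose array 2 than on array 1, the third largest excess of array 2 over array 1 among 5907 probes, for which the median gap by size was 0.09. NCE103, the carbonic anhydrase gene, had a gap of 0.94 between the same arrays. Each probe was printed as 7 spots. For MPC3, the lower-gain scan supplied 6, 7 and 7 of them on the xylose arrays, against 0 on each glucose array, and the part of this in the difference was not tested. On glucose array 3, 1 unmarked spot of MPC3 had a signal of 20662 whereas the others lay between 3455 and 3936. With the median of the spots in place of their mean, an alternative chosen after seeing the data, the MPC3 level on that array was 0.07 instead of 0.39 and the difference between the sugars 4.22.

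MPC2 (YHR162W), the partner known from fermentative growth, had lower values in xylose. Its log2 levels were 1.38, 1.72 and 1.03 on xylose arrays 1, 2 and 3, against 3.01, 2.75 and 2.41 on the glucose arrays. Every glucose array lay above every xylose array. The means were 1.38 ± 0.34 in xylose and 2.72 ± 0.30 in glucose (SD, n = 3 each), a difference of -1.34 ± 0.29 (SE), or a level 2.54-fold higher in glucose. This difference missed the threshold with all arrays (limma, adjusted p = 0.0625). It passed without glucose array 2 at -1.33 (limma, adjusted p = 0.0482). It also passed with the replicate number as a block, a setting under which 2 of the 10 genes were called against 5.25% of all probes, with an adjusted p of 0.0441 in limma for MPC2. In all, MPC2 passed in 5 of the 19 alternatives that gave a test, and its adjusted p in limma reached 0.270. With xylose arrays 1 and 2 averaged, its adjusted p in limma was 0.224. Glucose array 2 did not stand apart for MPC2, at 0.04 above the mean of the other glucose arrays. The lower-gain scan supplied 7, 0 and 6 of the MPC2 spots on glucose arrays 1, 2 and 3, against 0 on each xylose array. The part of this in the MPC2 difference, and in its comparison with MPC3, was not tested.

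MPC1 (YGL080W), the subunit common to both carrier forms, had log2 levels of -1.70, -1.63 and -2.17 on the xylose arrays, against -1.68, -2.32 and -2.26 on the glucose arrays. The groups overlapped, with means of -1.83 ± 0.30 in xylose and -2.09 ± 0.35 in glucose (SD, n = 3 each). The difference was 0.25 ± 0.29 (SE) with a 95% interval of -0.42 to 0.93 (limma, adjusted p = 0.736), so a change of more than 2-fold either way lay outside its interval. Such an interval, within 2-fold either way, was found for 3 of the 10 genes, MPC1, PDA1 and LAT1, against 34.4% of all probes. With glucose array 2 left out it was found for 4 of them, PDX1 included, against 38.3%.

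The partners of Mpc1 were compared through the difference between their levels on the same array, which does not depend on the constant that scales an array. Only the change of this difference between the sugars is read, since levels of different probes are not comparable. MPC3 minus MPC2 was 2.23, 2.80 and 3.47 on the xylose arrays, against -2.64, -3.12 and -2.02 on the glucose arrays. The xylose arrays all lay above the glucose arrays, and the difference shifted by 5.43 ± 0.48 (SE), a 43.1-fold change of the ratio (exact permutation test, two-sided, p = 0.1, the smallest that 3 against 3 arrays can give). Every xylose array was above every glucose array for MPC3 and below every one for MPC2. The lack of overlap and this permutation p were thus fixed by the separate levels and add no further evidence. The shift was 5.17 without glucose array 2. MPC3 minus MPC1 was 5.31, 6.15 and 6.68 on the xylose arrays, against 2.05, 1.95 and 2.64 on the glucose arrays. That shift of 3.83 ± 0.46 (SE) was again without overlap (exact permutation test, p = 0.1). The probe sequences were not used here, so cross-hybridisation between the related genes MPC2 and MPC3 was not tested.

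**Figure D2:**
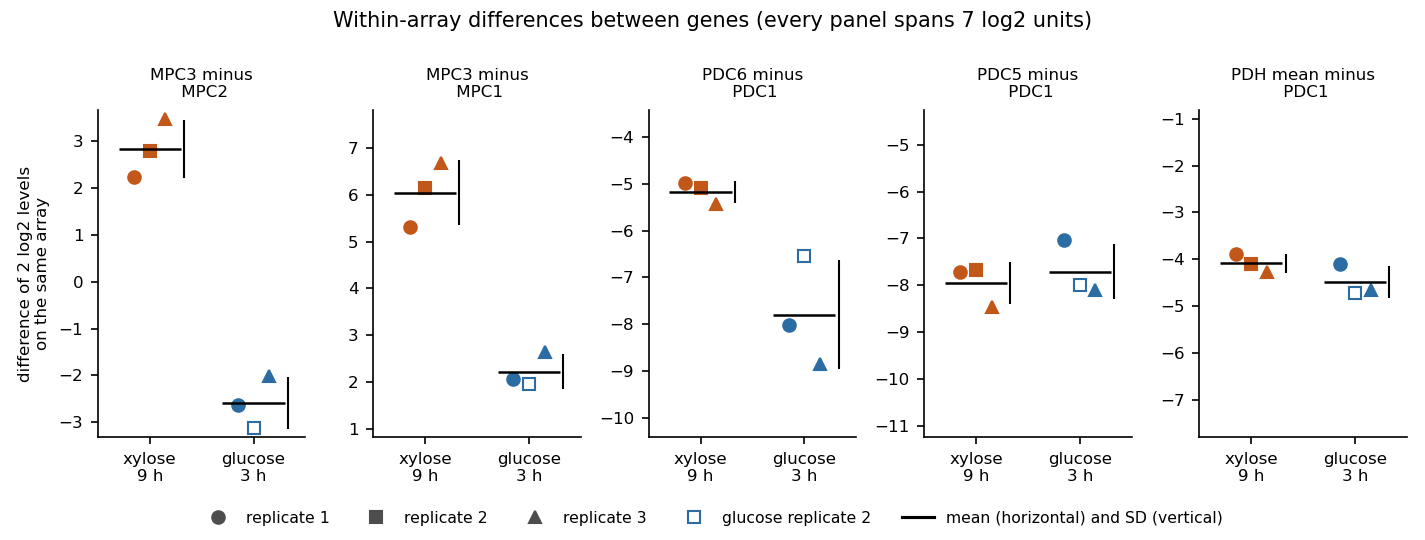
Within-array differences of log2 level (vertical axis) for 5 pairs, with the xylose arrays at 9 h left of the glucose arrays at 3 h in each panel. Points are arrays, horizontal lines group means and vertical lines SD; for MPC3 minus MPC2 the xylose arrays lie between 2.23 and 3.47 and the glucose arrays between -3.12 and -2.02, whereas the groups overlap for PDC5 minus PDC1.

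Among the decarboxylases, PDC1 (YLR044C) encodes the main isozyme of growing cells. Its log2 levels were 5.53, 5.71 and 6.04 on xylose arrays 1, 2 and 3, against 5.94, 6.46 and 6.68 on the glucose arrays. The highest xylose array lay above the lowest glucose array, and on both slides the xylose value was lower. The means were 5.76 ± 0.26 in xylose and 6.36 ± 0.38 in glucose (SD, n = 3 each). The difference of -0.60 ± 0.29 (SE) did not pass the test (limma, adjusted p = 0.359), and its 95% interval of -1.27 to 0.07 included a level more than 2-fold higher in glucose. Every PDC1 spot, in both sugars, was read from the lower-gain scan of the array. On the arrays of replicate 3, 3 of the 7 PDC1 spots were left in xylose and 2 in glucose after outlying spots were removed, and with all spots kept the difference was -0.63.

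PDC5 (YLR134W) encodes an isozyme known to be raised when Pdc1 is lost. Its log2 levels were -2.18, -1.97 and -2.43 on the xylose arrays, against -1.10, -1.54 and -1.43 on the glucose arrays. All xylose arrays lay below all glucose arrays. The difference was -0.84 ± 0.25 (SE), with means of -2.19 ± 0.23 in xylose and -1.35 ± 0.23 in glucose (SD, n = 3 each), or a level 1.79-fold higher in glucose. Its 95% interval was -1.43 to -0.25, and it did not pass the test with all arrays (limma, adjusted p = 0.148). At -0.93 without glucose array 2 it did not pass either (limma, adjusted p = 0.0565). With the slide as a block, PDC5 passed at an adjusted p of 0.0487 in limma, and 3 of the 10 genes were called, MPC2, MPC3 and PDC5, against 11.7% of all probes. PDC5 passed in this 1 of the 19 alternatives that gave a test. With normexp background correction its difference was -0.47 (limma, adjusted p = 0.559). That correction moved the median of all probes to 0.22, and relative to this median PDC5 was at -0.69.

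PDC6 (YGR087C), a minor isozyme, had the largest gap of the 10 genes between glucose array 2 and the other glucose arrays. Its log2 levels were 0.54, 0.62 and 0.60 on the xylose arrays, against -2.08, -0.08 and -2.16 on the glucose arrays. The xylose arrays were nearly identical, glucose arrays 1 and 3 were far below them, and glucose array 2 lay in between. The means were 0.59 ± 0.04 in xylose and -1.44 ± 1.18 in glucose (SD, n = 3 each). The difference with all arrays was 2.03 ± 0.55 (SE), 4.08-fold higher in xylose, with a 95% interval of 0.74 to 3.32 (limma, adjusted p = 0.120). Without glucose array 2 the difference was 2.71 ± 0.17 (SE), 6.54-fold higher in xylose (limma, adjusted p = 0.00263). Glucose array 2 was 2.04 above the mean of the other glucose arrays for this gene, whereas the median gap by size over all probes was 0.54.

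The isozymes were also compared on the same array. PDC6 minus PDC1 was -4.99, -5.09 and -5.44 on the xylose arrays, against -8.02, -6.54 and -8.84 on the glucose arrays. The groups did not overlap, and the difference shifted by 2.63 ± 0.69 (SE) toward PDC6 in xylose (exact permutation test, two-sided, p = 0.1) and by 3.26 without glucose array 2. PDC5 minus PDC1 was -7.71, -7.68 and -8.46 on the xylose arrays, against -7.03, -8.00 and -8.10 on the glucose arrays. It shifted by -0.24 ± 0.43 (SE), with overlapping groups (exact permutation test, p = 0.6). The coding sequences of PDC1, PDC5 and PDC6 are related, and how far their probes share signal was not tested.

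Of the 4 pyruvate dehydrogenase genes, 0 passed the test in limma with all arrays, against 2.52% of all probes. Groups without overlap were found for 0 of the 4, against 23.5% of all probes. The smallest unadjusted p in limma was 0.342, for PDX1. PDA1 (YER178W), the alpha subunit of the decarboxylating enzyme, had log2 levels of 2.35, 2.39 and 2.25 on the xylose arrays, against 2.68, 2.33 and 2.43 on the glucose arrays. The groups overlapped and lay close together, with means of 2.33 ± 0.07 in xylose and 2.48 ± 0.18 in glucose (SD, n = 3 each). The difference was -0.15 ± 0.22 (SE), with a 95% interval of -0.67 to 0.38 (limma, adjusted p = 0.815).

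PDB1 (YBR221C), the beta subunit of the same enzyme, had 0.53, 0.45 and 1.27 on the xylose arrays, against 0.64, -0.20 and 1.60 on the glucose arrays. In both sugars array 3 was highest, and glucose array 2 was lowest of all. The means were 0.75 ± 0.45 in xylose and 0.68 ± 0.90 in glucose (SD, n = 3 each). The difference was 0.07 ± 0.48 (SE; limma, adjusted p = 0.965), with a 95% interval that reached past 2-fold on both sides, and it was -0.37 without glucose array 2. On glucose array 3, 1 unmarked spot of PDB1 read 21249 whereas the others reached at most 10332.

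LAT1 (YNL071W), the acetyltransferase that forms the core of the complex, had 2.89, 2.79 and 2.86 on the xylose arrays, against 3.45, 2.42 and 3.32 on the glucose arrays. The xylose arrays fell inside the range of the glucose arrays, which was set by glucose array 2 at its low end. The means were 2.85 ± 0.05 in xylose and 3.06 ± 0.56 in glucose (SD, n = 3 each). The difference was -0.22 ± 0.32 (SE) with all arrays (limma, adjusted p = 0.808). Without glucose array 2 it was -0.54, with a 95% interval of -0.96 to -0.11 (limma, adjusted p = 0.109).

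PDX1 (YGR193C), the subunit that anchors dihydrolipoamide dehydrogenase to the core, had 0.82, 0.83 and 0.65 on the xylose arrays, against 0.59, 2.38 and 0.78 on the glucose arrays. Glucose array 2 lay far above the other 5 arrays, which were close together. The means were 0.77 ± 0.10 in xylose and 1.25 ± 0.99 in glucose (SD, n = 3 each). The difference was -0.48 ± 0.47 (SE) with all arrays (limma, adjusted p = 0.681) and 0.08 without glucose array 2. Glucose array 2 was 1.70 above the mean of the other glucose arrays for PDX1 and, for PDB1 and LAT1, 1.31 and 0.96 below it, so it did not move the subunits of 1 complex in 1 direction.

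The mean log2 level of PDA1, PDB1, LAT1 and PDX1 was set against PDC1 on each array, to compare the mitochondrial route with the main decarboxylase. It was -3.89, -4.09 and -4.28 on the xylose arrays, against -4.10, -4.72 and -4.65 on the glucose arrays. This difference shifted by 0.40 ± 0.23 (SE) toward the dehydrogenase genes in xylose, with overlapping groups (exact permutation test, two-sided, p = 0.2). It was 0.29 without glucose array 2.

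**Figure D3:**
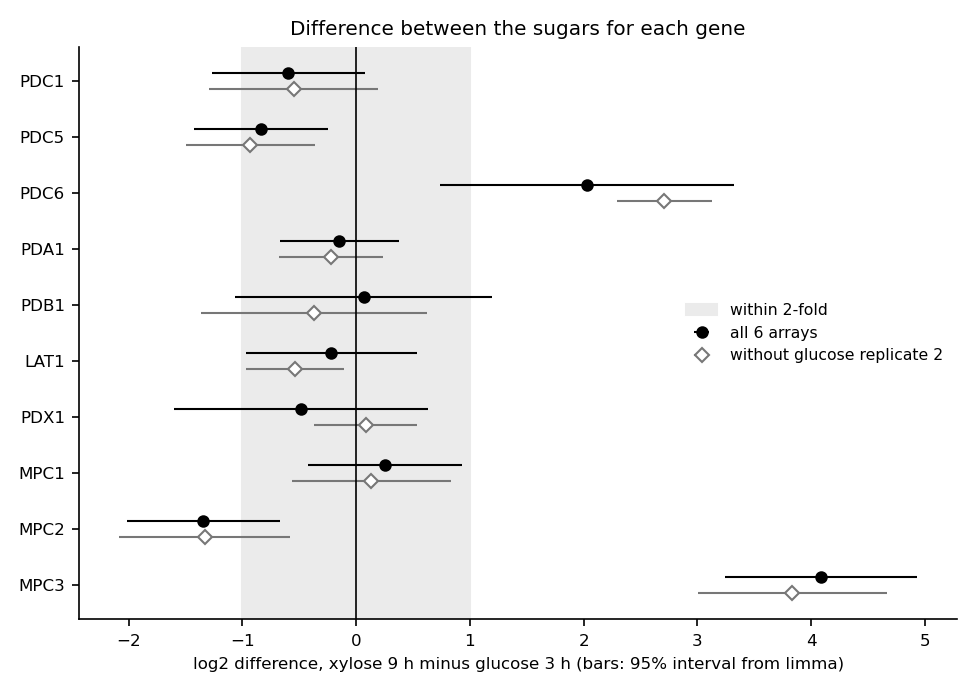
Difference in log2 level, xylose at 9 h minus glucose at 3 h (horizontal axis), for each of the 10 genes with its 95% interval, over all 6 arrays and without glucose array 2. MPC3 lies at 4.09 over all arrays, and PDC6 lies at 2.03 over all arrays and at 2.71 without glucose array 2.

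For MPC3, PDC1 and PDA1, the tested genes with the most similar pattern over the 6 arrays were listed by Pearson's r, as a description with 6 points that share the 2 sugars. The closest to MPC3 were NCE103 (r = 0.996), GAT4 (r = 0.995) and TKL2 (r = 0.995), which were higher in xylose by 4.24, 2.12 and 1.72 on the log2 scale. The closest to PDC1 were MBB1 (r = 0.988), MLF3 (r = 0.982) and SMI1 (r = 0.978), with differences of -0.81, -0.33 and -0.24. The closest to PDA1 were FMP23 (r = 0.993), SSE1 (r = 0.992) and ZUO1 (r = 0.987), with differences of -0.72, -0.61 and -0.16.

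The genes around the branch were described through 4 lists with 39 genes in all, every one of them tested. Of the 7 genes that regulate pyruvate decarboxylase or supply its thiamine cofactor, 0 passed the limma test with all arrays and 1, THI80, had an unadjusted p under 0.05, against 16.5% of all probes. Their differences ranged between -0.85 for THI80 and 0.47 for THI2, with a median of -0.29. Both ends depended on the processing. With normexp background correction THI80 was at 0.12. THI2 was at 0.19 with the median of the spots and at -0.16 without glucose array 3. PDC2, the transcription factor of the decarboxylase genes, had log2 levels of -0.92, -0.99 and -1.03 on the xylose arrays, against -0.70, -0.73 and -0.62 on the glucose arrays. Its groups did not overlap, but the difference of -0.29 ± 0.21 (SE) did not pass (limma, adjusted p = 0.556).

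The next list held 10 genes for the shared subunit, the kinases, the phosphatases and the lipoylation of the dehydrogenase complex. Of these, 0 passed the limma test with all arrays, against 2.52% of all probes. An unadjusted p under 0.05 was found for 0 of them, against 16.5% of all probes. Their differences lay between -0.12 and 0.28. LPD1, the dihydrolipoamide dehydrogenase that the complex shares with other enzymes, had 3.29, 3.35 and 3.39 on the xylose arrays, against 3.31, 2.69 and 3.44 on the glucose arrays. Glucose array 2 was again the one that stood apart, on the low side as for LAT1, and the difference was 0.20 ± 0.27 (SE; limma, adjusted p = 0.794).

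Of the 12 other enzymes that make or use pyruvate, 0 passed the limma test with all arrays and 3 (CYB2, MAE1 and DLD1) had an unadjusted p under 0.05, against 16.5% of all probes. The list had a median difference of -0.37 and a range between -1.60 for MAE1, the mitochondrial malic enzyme, and 1.39 for CYB2, the mitochondrial lactate dehydrogenase that yields pyruvate. The spots of the MAE1 probe varied by up to 79.5% within an array (SD over mean). With the median of the spots in place of their mean, the MAE1 difference was -1.04 (limma, adjusted p = 0.0567, against 0.144 with the mean). Spike-in scaling, which moved the median of all probes to -0.78 and called 253 probes as lower in xylose, put MAE1 past the threshold. Its difference there was -2.40 (limma, adjusted p = 0.00832). With glucose array 2 left out, which gave 11.5% of all probes called, CYB2 passed at 1.56 (limma, adjusted p = 0.0385) and ILV2, the acetolactate synthase that draws pyruvate into branched-chain amino acids, passed at -1.44 (limma, adjusted p = 0.0327). The ILV2 spots varied by up to 104.7% within an array. With all arrays the ILV2 difference was -0.98, and -0.84 with the median of the spots. With the slide as a block, which called 11.7% of all probes, CYB2 at 1.39 and DLD1, a D-lactate dehydrogenase, at 0.67 passed (limma, adjusted p = 0.0399 and 0.0332).

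Of the 10 alcohol dehydrogenase, aldehyde dehydrogenase and acetyl-CoA synthetase genes listed around acetaldehyde and acetyl-CoA, 2 rose, against 2.52% of all probes called. In limma, 7 of the 10 had an unadjusted p under 0.05, against 16.5% of all probes, and ACS2 among these was lower in xylose. The median difference over the list was 1.31. ADH2, the alcohol dehydrogenase known for oxidising ethanol, was 5.77-fold higher in xylose, with log2 levels of -1.87 ± 0.21 in xylose and -4.40 ± 0.55 in glucose (SD, n = 3 each; limma, adjusted p = 0.0160). ACS1, an acetyl-CoA synthetase, was 4.96-fold higher, at -0.33 ± 0.47 in xylose and -2.64 ± 0.59 in glucose (SD, n = 3 each; limma, adjusted p = 0.0299). Both calls were lost when any 1 of the xylose arrays or glucose array 1 was left out, and the adjusted p in limma then reached 0.124 for ADH2 and 0.160 for ACS1. ACS1 also lost its call without glucose array 3. Averaging xylose arrays 1 and 2, spike-in scaling and the fit within slide 1 each ended both calls, at adjusted p-values in limma of 0.106, 0.0983 and 0.15 for ADH2 and of 0.159, 0.161 and 0.139 for ACS1, and normexp ended that of ACS1 (0.0546). With glucose array 2 left out, which gave 11.5% of all probes called, the aldehyde dehydrogenase genes ALD2 at 1.88 and ALD4 at 1.56 passed as well (limma, adjusted p = 0.00510 and 0.0411). ACS2, the other acetyl-CoA synthetase gene, had the lowest difference of this list at -0.94 and did not pass with all arrays (limma, adjusted p = 0.197). The replicate block, which called 5.25% of all probes, added ALD4 (limma, adjusted p = 0.0485) to ADH2 and ACS1. Quantile scaling, which called 191 of 5907 probes, added ALD4 and ALD6 to them (limma, adjusted p = 0.0200 and 0.0423). The slide block, which called 11.7%, added ALD2, ALD4, ALD6 and, as lower in xylose, ACS2 (limma, adjusted p = 0.0441, 0.0203, 0.0367 and 0.0363).

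**Figure D4:**
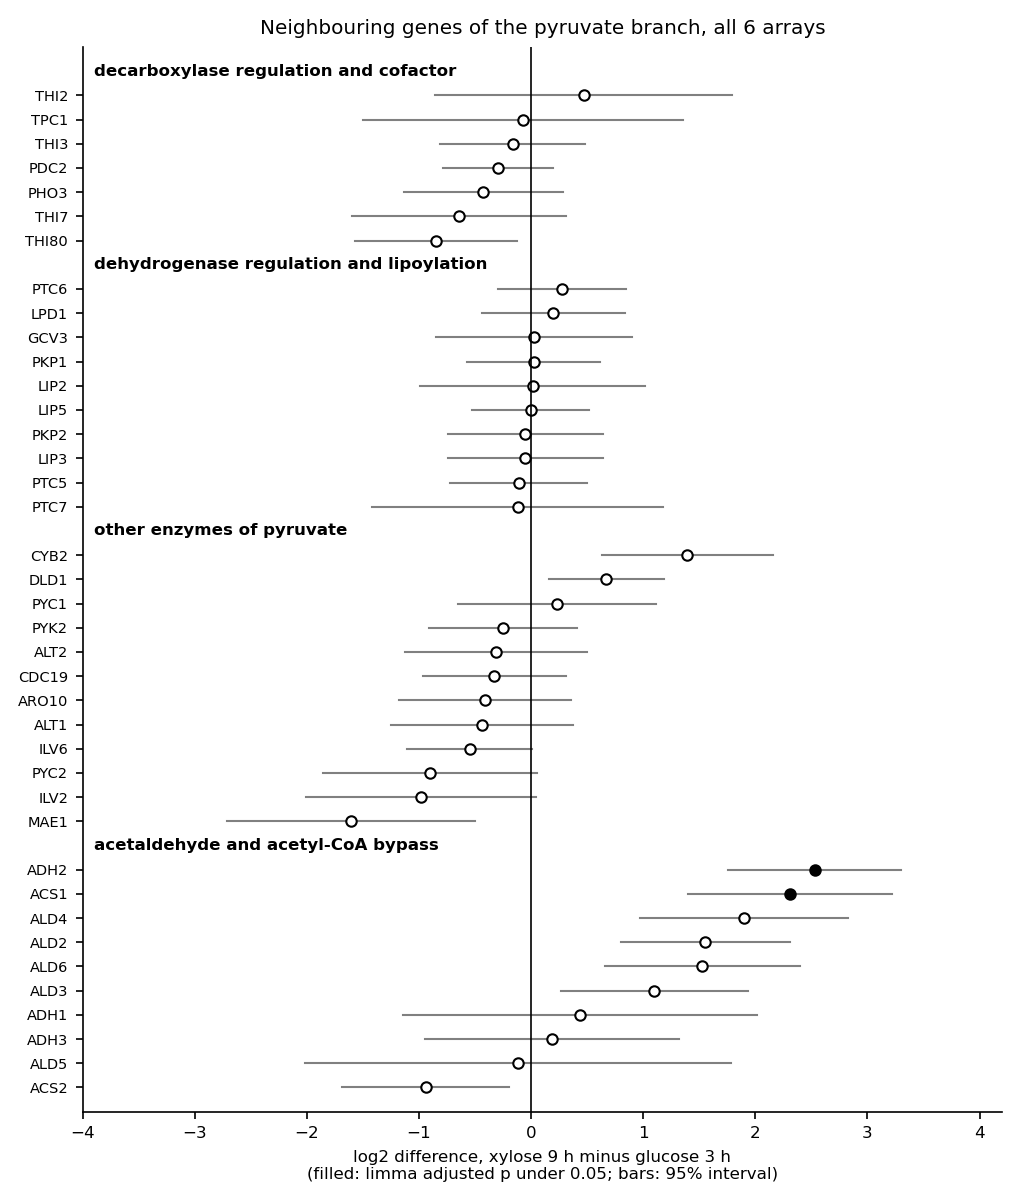
Difference in log2 level, xylose at 9 h minus glucose at 3 h, for the 39 genes of the 4 lists around the pyruvate branch, over all 6 arrays with 95% intervals. The 2 genes past the threshold, ADH2 at 2.53 and ACS1 at 2.31, belong to the list around acetaldehyde and acetyl-CoA. The list of dehydrogenase regulation and lipoylation stays between -0.12 and 0.28.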

How the data were processed

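RNA of 6 samples was hybridised to 1-colour Agilent arrays, 3 samples of xylose at 9 h and 3 of glucose at 3 h. The deposited scanner files hold 1 linear processed intensity per spot. It was made with Agilent Feature Extraction, version 10.1.1.1, which both the submitters' processing notes and the headers name. The deposited value table holds log2 values that equalled the probe means computed here less 1 constant per array, with the same direction and no centring of genes; its column medians were -1.25, -1.23 and -1.38 for xylose and -1.26, -1.26 and -1.41 for glucose.

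Outlying spots (727 to 1722 of 43792 per array) were left out, log2 intensity was centred on the 75th percentile of its array, and a probe's spots were averaged. Testing covered 5907 of 6256 probes, those well above background in at least 50% of spots on 3 or more arrays. The fit used limma 3.58.1 in R 4.3.3 (lmFit, eBayes, two-sided, with Benjamini-Hochberg adjustment over all tested probes, called under 0.05), with sugar as the only term, and it was tested on simulated data. Of the probes, 5756 had a gene symbol. Normexp used median spot signals, which the files give, and an offset of 50.

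The members and lists were chosen with earlier results of these data known. Named genes were all members, LPD1, PDC2, listed genes past the threshold with all arrays or without glucose array 2, and the 3 genes most alike MPC3, PDC1 and PDA1; list extremes, ACS2, ALD6, DLD1 and the genes beside MPC3 in the gap between xylose arrays 1 and 2 were chosen after their values were seen. Deviations from the group means correlated at 0.399, 0.219 and 0.707 between samples of replicate numbers 1, 2 and 3. Xylose array 1 with glucose array 2 gave 0.246, and xylose array 2 with glucose array 1 gave 0.410. The slides held arrays 1 and 2 or array 3, so these values do not separate a shared replicate number from a shared slide. Deviations within a group cancel out, so the values are not independent. A replicate block and a slide block were fitted as alternatives. Other alternatives were each slide alone, each array left out, xylose arrays 1 and 2 averaged, normexp, quantile, median and spike-in scaling, other filters and the deposited table. No source used here names a genome build, so no coordinates or sequences are printed.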

Additional observations from a re-analysis of the deposited data

How the results depend on the processing

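MPC3 kept its direction in every alternative run. It kept its call in all that gave a test except the fit within slide 1 (adjusted p = 0.139 in limma); slide 2, with 1 array a sugar, gave no test. The 1 called member became 2 under a replicate block, 3 under a slide block, 0 within slide 1, 2 with median centring, 2 with spike-in scaling and 1 to 3 when 1 array was left out. Over all probes, the 149 calls became 310 under the replicate block, 690 under the slide block, 12 with xylose arrays 1 and 2 averaged, 53 with normexp (37 higher, 16 lower), 283 with spike-in scaling (30 higher, 253 lower) and 12 to 682 when 1 array was left out, and limma gave 0 within slide 1, where 987 probes had an unadjusted p under 0.05. Spike-in scaling moved the median of all probes to -0.78 and normexp to 0.22.

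Directions turned for 3 members that were not called. The PDB1 difference was -0.33 within slide 2 and -0.37 to 0.53 when 1 array was left out. With spike-in scaling it was -0.73, which is 0.05 above the shifted median of all probes. The PDX1 difference was -0.81 to 0.083 when 1 array was left out, the highest without glucose array 2. The MPC1 difference was -0.55 with spike-in scaling, which is 0.23 above the shifted median. PDC5 minus PDC1 was 0.22 with normexp and -0.44 to 0.10 when 1 array was left out. PDC6 passed without glucose array 2 alone among the arrays left out, and so did MPC2. The cause was not tested. The 3 arrays a group, unknown probe sequences and the confounding of sugar with time limit all values.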
